A study of Homo sapiens with 10 samples.

Results

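SLC3A2, the CD98 heavy chain, was followed together with 6 light chains that pair with it and 3 amino acid transporters that work without it, through their sgRNA counts in a genome-wide CRISPR knockout screen. The 10 genes (SLC3A2; the light chains SLC7A5, SLC7A6, SLC7A7, SLC7A8, SLC7A10 and SLC7A11; and SLC1A5, SLC38A2 and SLC7A1) were taken by symbol from a table of 18686 gene symbols, and all 10 were listed. They carried 30 of the 55849 sgRNAs, 3 per gene. SLC3A2 was chosen with results of this screen in view, in a comparison that is not named, so its values were themselves what it was selected on and are given as a description without a test. The light chains and the other transporters were added for what their proteins do, also with results known.

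The screen was run in 22Rv1, a human prostate cancer cell line, as the parental line and as a derivative labelled NMYC overexpressed (NMYC is the protein of MYCN). Neither the overexpression construct nor whether the derivative is a clone or a pool is stated in the labels. Per the labels, the viral sgRNA library lentiCRISPRv2_B went in at a multiplicity of 0.3, infected cells were selected with puromycin, and duplicate cultures were passaged every 72 hours over 12 generations. Both arms thus carry Cas9, an sgRNA and puromycin resistance, and differ in the labels by the NMYC overexpression. An effect of NMYC cannot be told apart here from other differences between the arms, such as in infection. Each arm gave 1 library at T0, after selection, 2 at T6 and 2 at T12; whether these numbers are days, passages or generations is not stated in the labels. The design asks which knockouts cost NMYC cells more than parental cells.

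SLC3A2 is a single-pass glycoprotein that brings a light chain of the SLC7 family to the cell surface through a disulfide bond, and the light chain forms the transport path. Which amino acids cross depends on the light chain: SLC7A5 and SLC7A8 exchange large neutral amino acids such as leucine, SLC7A6 and SLC7A7 exchange cationic against neutral amino acids, SLC7A10 carries small neutral amino acids including D-serine, and SLC7A11 imports cystine in exchange for glutamate. SLC3A2 also binds beta integrins. MYC proteins are known to drive the expression of several amino acid transporters, SLC7A5 and SLC1A5 among them. In a dropout screen an sgRNA whose target is needed for growth becomes rarer with time, and one whose target restrains growth becomes more common.

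Library totals ran from 8783512 to 18398571 counts. After scaling to the library size adjusted by TMM (an edgeR factor for library composition), 1 count was worth between 0.0514 and 0.143 CPM (counts scaled to library size). Of the 30 sgRNAs, 28 had a mean of at least 20 counts over the 10 libraries and were kept, which left 3 for 8 of the genes and 2 for SLC7A5 and SLC7A11. Of the 300 member counts, 28 were 0, and a count of 0 still allows up to 3 counts. The absolute log2 gap in summed CPM between duplicate libraries, centred on the median gene, had a median over all genes of 1.05 at parental T6. It was 0.617 at NMYC T6, 1.12 at parental T12 and 1.04 at NMYC T12. With a single T0 library per arm, the duplicates were taken to share an infection. Their spread would then be the one that arose afterwards, in culture, DNA sampling and amplification. The 3 sgRNAs of a gene share a target and are not replicates of a condition.

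The SLC3A2 sgRNA HGLibB_45079 was scarce at T0 and common at T12 in parental cells, with the opposite order in NMYC cells, and the other 2 sgRNAs followed it in part. The sgRNA HGLibB_45079 had 8 counts in the parental T0 library, 179 and 23 at T6, and 718 and 944 at T12. In NMYC cells the same sgRNA had 1505 counts at T0, then 425 and 109 at T6, and 1 and 204 at T12. Its T12 counts were above T0 in both parental cultures and below T0 in both NMYC cultures.

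The parental T0 library held 0 counts of HGLibB_45080, against 74 and 0 at T6 and 21 and 37 at T12. The NMYC libraries held 342 counts of it at T0, then 495 and 21 at T6, and 2 and 10 at T12. For HGLibB_45081 there were 29 counts in the parental T0 library, 466 and 60 at T6, and 283 and 61 at T12, against 50 at NMYC T0, then 339 and 181 at T6, and 67 and 4 at T12. Neither was common throughout: HGLibB_45080 stayed below the median count of the parental T12 libraries (106 and 114), and HGLibB_45081 below that of the NMYC T0 library (113). In NMYC cells HGLibB_45081 lay on both sides of T0, with 4.38 and 0.288 CPM at T12 beside 3.88 at T0.

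In the fitted edgeR values all 3 SLC3A2 sgRNAs were higher at T12 than at T0 in parental cells and all 3 were lower in NMYC cells. Over the 15248 genes with 3 kept sgRNAs, 1.71% had this pattern. Because SLC3A2 was chosen on such values, nothing is read from that share.

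**Figure D1:**
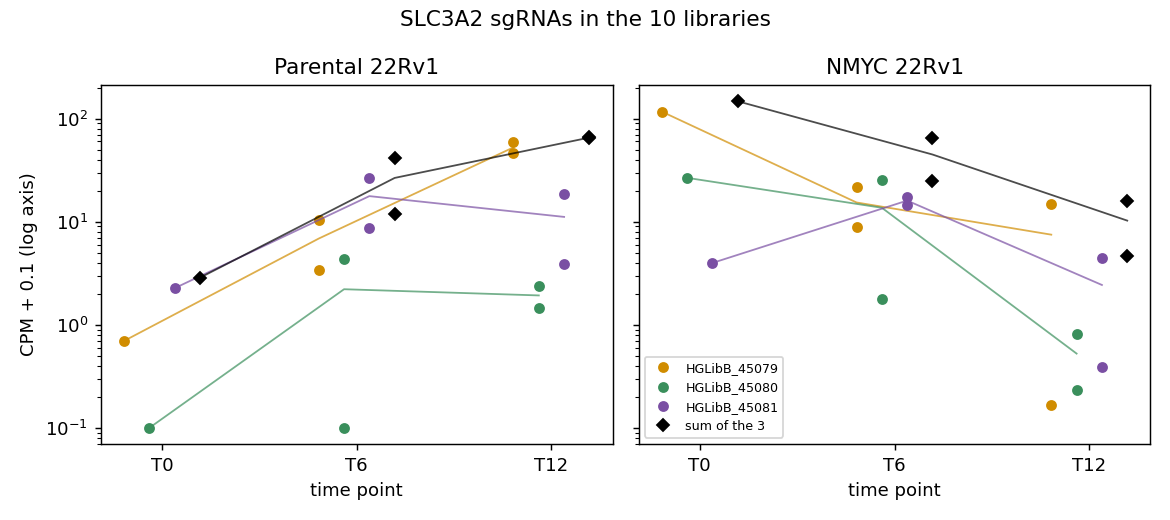
CPM plus 0.1, on a log axis, of the 3 SLC3A2 sgRNAs (circles) and of their sum (diamonds) at T0, T6 and T12 in parental (left) and NMYC cells (right); points are libraries and lines join the means. The sum goes from 2.76 CPM at T0 to 66.0 and 64.7 CPM at T12 in parental cells and from 147 to 4.58 and 15.7 CPM in NMYC cells.

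Summed over its sgRNAs, SLC3A2 stood at 2.76 CPM (37 counts) in the parental T0 library, 41.1 and 11.9 CPM at T6 and 66.0 and 64.7 CPM at T12. In NMYC cells the sum was 147 CPM (1897 counts) at T0, then 64.7 and 24.8 CPM at T6 and 4.58 and 15.7 CPM at T12. From highest to lowest the groups were NMYC T0, parental T12 (65.4 ± 0.925, SD, n = 2), NMYC T6 (44.8 ± 28.2), parental T6 (26.5 ± 20.6), NMYC T12 (10.2 ± 7.88) and parental T0. Parental T12 and NMYC T6 lay closer together than the SD of the latter, as did NMYC T6 and parental T6, and the ranges of parental T6 and NMYC T12 overlapped.

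As a log2 fold change of the sums relative to the median gene (the log2 value below, with 0.1 CPM added), SLC3A2 was at 4.61 in parental cells from T0 to T12 and at -3.87 in NMYC cells. The difference, NMYC minus parental, was -8.38. By size of that difference 35 of the 18197 genes tested lay lower. SLC3A2 was chosen on such values, so nothing is read from that rank. The duplicate cultures gave 4.78 and 4.75 in parental cells and -4.72 and -3.22 in NMYC cells. The cultures of an arm therefore differed by less than the distance of either from 0. Both are set against the same T0 library, so their closeness does not measure the error of that distance.

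The arms already differed at T0. SLC3A2 was higher in the NMYC T0 library than in the parental one by a log2 value of 5.82, and 99.2% of the genes had a smaller gap between the T0 libraries. With both T0 libraries together as the baseline, the parental value was 0.02 and the NMYC value -2.61, so the parental value depends on its T0 library, of which 1 per arm was used here. By construction, the difference from T0 (-8.38) is the T12 comparison between the arms less this T0 gap, apart from centring on the median gene. What the T0 gap came from was not tested. A comparison at T12 that leaves T0 out gave -2.60 for NMYC against parental, with both NMYC libraries (4.58 and 15.7 CPM) below both parental libraries (66.0 and 64.7 CPM). Over all genes 19.0% had both NMYC libraries below both parental libraries at T12, and 2 of the 10 transporters did, SLC3A2 and SLC38A2. At T6 the order was not the same: NMYC libraries had 64.7 and 24.8 CPM and parental libraries 41.1 and 11.9, ranges that overlap. At T6 3 of the 10 transporters had both NMYC libraries below both parental libraries (18.7% of all genes) and 1 had both above (2722 of the 18197 genes).

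One sgRNA carried much of the SLC3A2 sum. HGLibB_45079 made up 79.3% of it at NMYC T0 and 70.2% and 90.6% in the parental T12 libraries. Without this sgRNA the log2 value from T0 to T12 was 2.62 in parental cells, -3.44 in NMYC cells and -5.95 for the difference, and -2.11 at T12 between the arms. All 4 kept their direction. With all 3 sgRNAs the parental value was 4.61 and the difference -8.38, so both were much smaller in size without HGLibB_45079.

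Against the T0 library of its own arm, SLC3A2 at T12 lay above the light chains in parental cells and below them in NMYC cells. The parental order was not kept with both T0 libraries as the baseline. From T0 to T12 in parental cells 0 of the 6 light chains had a log2 value above that of SLC3A2, with a median of 0.08, a lowest value of -2.56 and a highest of 3.23. In NMYC cells all 6 lay above SLC3A2, with a median of 0.35, from -0.52 to 2.57. In the difference all 6 again lay above it, with a median of 0.15, from -1.33 to 4.32. With both T0 libraries as the baseline, 3 of the 6 lay above SLC3A2 (0.02) in parental cells: SLC7A7 at 1.62, SLC7A5 at 0.62 and SLC7A11 at 0.40. In NMYC cells all 6 still lay above it (-2.61), as they did at T12 between the arms, where T0 plays no part. At T6 between the arms the order was the reverse for most, with 5 of the 6 below SLC3A2 (0.96) and 1 above. All genes tested had a median of 0 in each, with middle quartiles from -1.04 to 1.25 in parental cells, -0.97 to 0.99 in NMYC cells and -1.53 to 1.49 in the difference.

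Set against each light chain within a library, SLC3A2 was the higher in both parental T12 libraries and the lower in both NMYC T12 libraries for all 6, each relative to the T0 library of the arm (37 SLC3A2 counts in parental cells). For the mean of the parental T12 libraries, the gaps to SLC7A5, SLC7A7 and SLC7A11 turned with both T0 libraries as the baseline, as given above. Gaps of single libraries were not computed with that baseline. Over the single parental libraries the gap ran from 0.52 (SLC7A7) to 10.4 (SLC7A8), and over the NMYC libraries from -7.64 (SLC7A7) to -1.45 (SLC7A6). The gap to SLC7A8 was 10.4 and 5.27 in parental cells and -7.49 and -5.91 in NMYC cells. The gap to SLC7A5 was 6.41 and 2.80 in parental cells and -4.13 and -3.01 in NMYC cells. With 2 cultures per arm and SLC3A2 chosen for its values these gaps carry no test, and the 6 light chains share the SLC3A2 values and the T0 libraries.

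**Figure D2:**
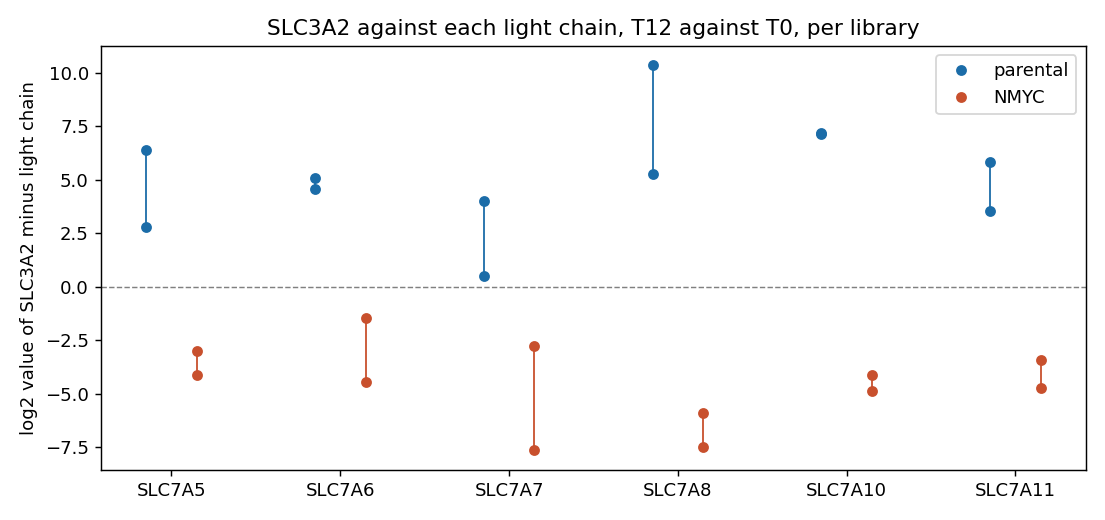
Difference of the log2 value (T12 against T0, relative to the median gene) of SLC3A2 minus that of each light chain; each point is 1 T12 library, blue parental and orange NMYC, with a line joining the pair. All parental points lie above 0 and all NMYC points below, with the parental point of SLC7A7 at 0.52 and the NMYC point of SLC7A6 at -1.45 nearest to it.

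SLC7A5, the main leucine transporter paired with SLC3A2 in many cancers, stayed in one range in NMYC cells and was split between cultures in parental cells. Its sum was 52.9 CPM at parental T0, then 73.6 and 35.4 at T6, and 14.3 and 173 at T12. In NMYC cells it was 89.0 CPM at T0, then 54.7 and 56.0 at T6, and 49.2 and 76.9 at T12. The parental T12 cultures lay on both sides of T0 (log2 values of -1.63 and 1.96), and the NMYC cultures were both slightly below (-0.60 and -0.21). Without its most abundant sgRNA the values of both arms turned, from 0.92 to -0.77 in parental and from -0.52 to 1.51 in NMYC cells. Its remaining sgRNA, HGLibB_45316, was left out: it had 13 counts at parental T0, 0 to 3 in the later parental libraries and 0 in all NMYC libraries.

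SLC7A8, the other leucine-carrying light chain, had summed values opposite in sign to those of SLC3A2 in both arms, though its sgRNAs disagreed in parental cells. In parental cells its sum was 53.1 CPM at T0, then 9.48 and 11.0 at T6, and 0.84 and 31.1 at T12. In NMYC cells it was 11.8 CPM at T0, then 13.7 and 32.8 at T6, and 67.8 and 76.7 at T12. Both NMYC T12 libraries were above T0 and above both parental T12 libraries, with log2 values of 2.57 in NMYC cells, -1.63 in parental cells and 4.32 for the difference. With 1 of its T6 or T12 libraries left out the parental value ran from -5.57 (without parental T12 replicate 2) to -0.52 (without parental T12 replicate 1) and the difference from 3.17 to 8.21. The difference was 2.24 with both T0 libraries as the baseline, where T0 drops out and the arms are compared at T12. It was 9.32 without the most abundant sgRNA, HGLibB_45330, so its sign held in these settings and its size did not. HGLibB_45330 made up 1.97% of the parental T0 sum, and the value without HGLibB_45329 was not computed. The rank aggregation gave an unadjusted p of 0.0361 on the higher side in NMYC cells and an adjusted p of 0.959, which did not pass. Most of the parental T0 level came from HGLibB_45329, with 653 counts at T0 and 0 to 2 later, while HGLibB_45330 had 14 counts at T0 and 8 and 434 at T12. In parental cells the fitted edgeR log2 fold changes from T0 to T12 were -8.87 for HGLibB_45329, -0.632 for HGLibB_45328 and 3.705 for HGLibB_45330. The parental sign of the sum thus leans on HGLibB_45329.

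SLC7A6 and SLC7A7, the exchangers of cationic amino acids, differed widely between duplicate T12 cultures, SLC7A6 in NMYC cells and SLC7A7 in both arms. SLC7A6 had 17.1 CPM at parental T0, then 14.85 and 21.5 at T6, and 16.8 and 11.4 at T12. In the NMYC libraries it stood at 37.2 CPM at T0, then 19.1 and 11.0 at T6, and 3.14 and 87.8 at T12. Most of the high NMYC culture came from HGLibB_45319, with 917 counts there and 0 to 2 in the other 4 NMYC libraries. Without NMYC T12 replicate 2 the NMYC log2 value of SLC7A6 was -3.27 in place of 0.26.

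SLC7A7 had 1.34 CPM (18 counts) at parental T0, then 34.7 and 25.8 at T6, and 23.1 and 1.93 at T12. The NMYC libraries had 7.99 CPM at T0, then 16.9 and 11.8 at T6, and 51.2 and 5.77 at T12. It was the 1 member other than SLC3A2 with a parental value as high at T6, 4.60 against 3.42 for SLC3A2. Its T12 cultures spanned a log2 gap of 3.52 in parental and 3.46 in NMYC cells, wider than the median absolute gaps over all genes of 1.12 and 1.04.

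SLC7A10, the carrier of small neutral amino acids best known from brain and fat, had 124 CPM at parental T0, then 27.5 and 108 at T6, and 20.1 and 19.1 at T12. Its NMYC level was 37.3 CPM at T0, then 36.9 and 41.1 at T6, and 34.6 and 69.3 at T12. Its parental T12 cultures agreed closely and lay below T0 (log2 value -2.56), and its NMYC cultures were near T0 (0.45). With both T0 libraries as the baseline the NMYC value was -0.37, and without its most abundant sgRNA, HGLibB_45296, it was -1.16.

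SLC7A11, the cystine importer that feeds glutathione synthesis, had 76.2 CPM at parental T0, then 92.7 and 196 at T6, and 30.9 and 149 at T12, the last on both sides of T0. In NMYC cells it had 82.0 CPM at T0, then 35.6 and 82.1 at T6, and 69.3 and 94.0 at T12. The log2 values from T0 to T12 were 0.33 in parental and -0.04 in NMYC cells. Its remaining sgRNA, HGLibB_45300, was left out, with 47 and 123 counts in the second T6 cultures of parental and NMYC cells and at most 5 in the other 8 libraries.

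**Figure D3:**
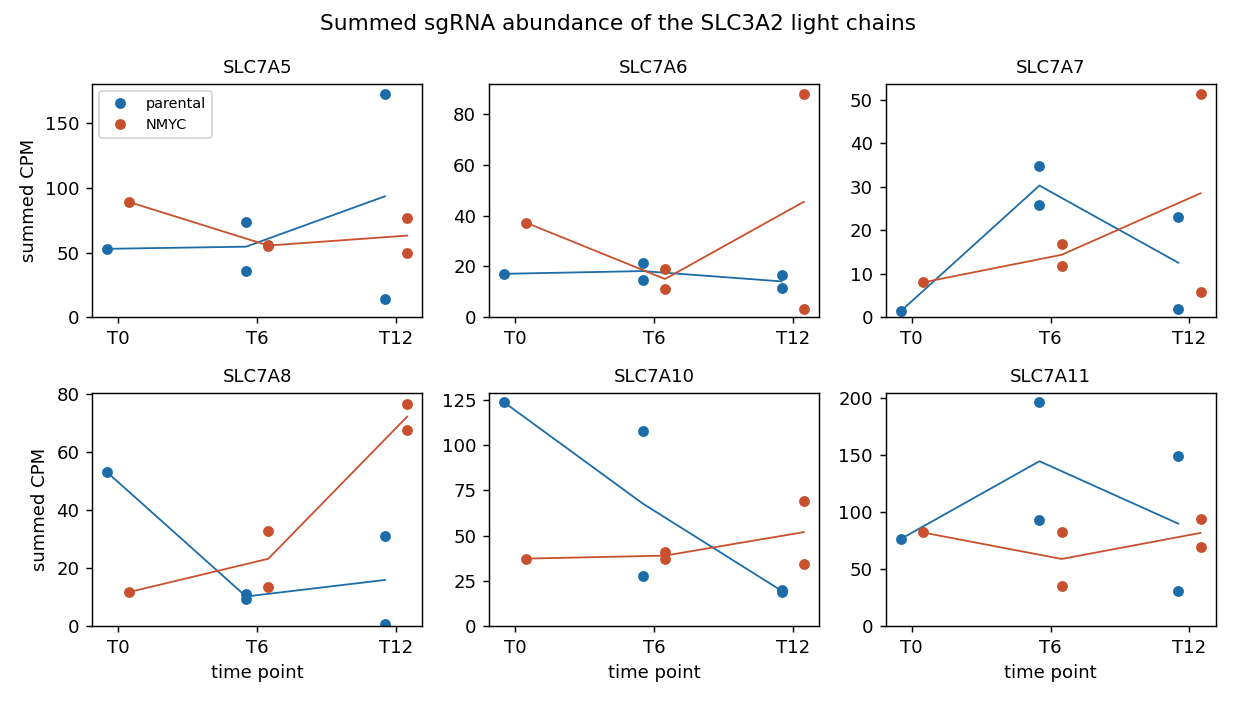
Summed CPM of the kept sgRNAs of each SLC3A2 light chain at T0, T6 and T12, each panel with its own axis from 0; points are libraries, blue parental and orange NMYC, and lines join the means. For SLC7A8 both NMYC T12 libraries (67.8 and 76.7 CPM) lie above both parental ones (0.84 and 31.1 CPM), and for SLC7A5 and SLC7A11 the parental T12 libraries lie on both sides of their T0 library.

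Among the transporters that work without SLC3A2, SLC38A2 and SLC1A5 were below T0 in every later NMYC library. SLC38A2, a sodium-coupled transporter of small neutral amino acids such as alanine and glutamine, had 131 CPM at NMYC T0, then 29.97 and 23.0 at T6, and 27.2 and 34.7 at T12. In parental cells it had 35.1 CPM at T0, then 55.2 and 59.1 at T6, and 45.9 and 79.1 at T12, so the arms lay on opposite sides of their T0 libraries. The log2 values from T0 to T12 were -2.11 in NMYC and 0.93 in parental cells. The NMYC value rests on HGLibB_45011, with 1617 counts at NMYC T0, and without it the NMYC value was 1.19 and the difference 0.39 in place of -2.93. With both T0 libraries as the baseline the parental value was -0.19.

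SLC1A5, a sodium-dependent exchanger known for glutamine uptake, went below T0 in both arms. It had 113 CPM at parental T0, then 23.9 and 43.7 at T6, and 59.3 and 53.3 at T12. The NMYC libraries had 155 CPM at T0, then 37.5 and 13.8 at T6, and 32.2 and 67.4 at T12. The log2 values at T12 were -0.90 in parental and -1.66 in NMYC cells, and without its most abundant sgRNA the NMYC value was 0.50. At T6 in NMYC cells its unadjusted p was 0.0409 and its adjusted p 0.965 (edgeR with rank aggregation).

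SLC7A1, a carrier of arginine and lysine, had 64.0 CPM at parental T0, then 46.7 and 9.32 at T6, and 7.30 and 28.3 at T12. In NMYC cells it was level, with 48.0 CPM at T0, then 44.7 and 35.9 at T6, and 49.9 and 37.0 at T12. Both NMYC T12 libraries lay above both parental T12 libraries, as they did for SLC7A8 and SLC7A10. Over all genes 14.8% had that order, against these 3 of 10. Without the most abundant sgRNA of each gene, the T12 value of NMYC against parental turned for SLC7A10, from 1.475 to -0.23. It kept its sign for SLC7A8 (3.75) and SLC7A1 (0.70).

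**Figure D4:**
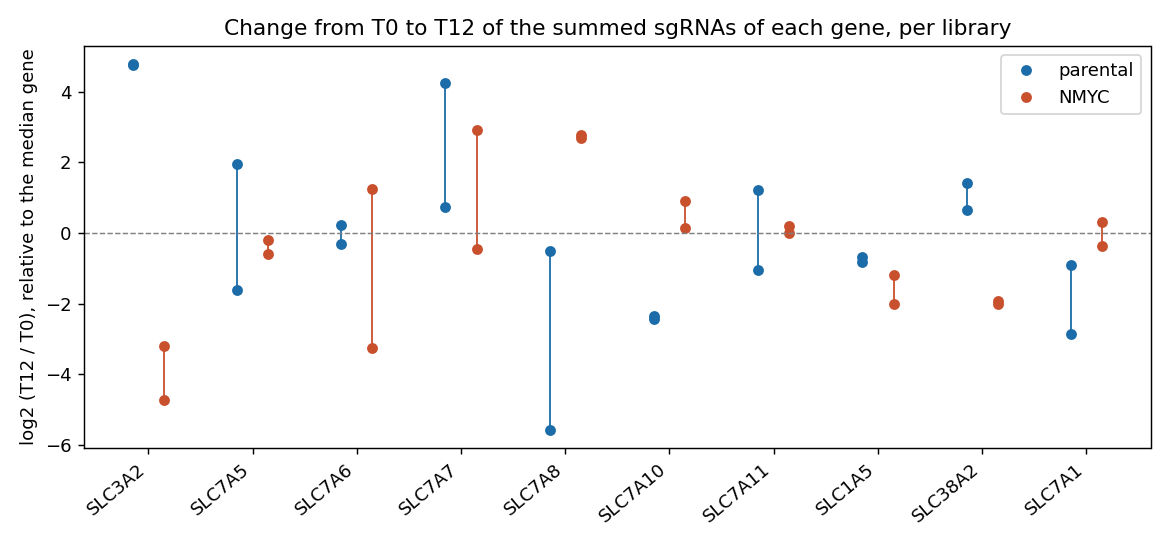
Log2 fold change of summed CPM from T0 to T12 relative to the median gene for the 10 transporters; points are T12 libraries, blue parental and orange NMYC, joined by a line, and the dashed line is the median gene. Among libraries of the same replicate number SLC3A2 has the highest parental value (4.78 and 4.75) and the lowest NMYC value (-4.72 and -3.22), while SLC7A8 and SLC7A10 lie on the opposite sides.

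Of the 9 genes other than SLC3A2, none passed the test over all genes. In the T12 against T0 comparisons the rank aggregation on edgeR p-values called 0 of the 9 in parental cells, in NMYC cells and in the difference, where 0% of all 18197 genes were called in either direction. Of the 9 genes other than SLC3A2, 0 were at an unadjusted p under 0.05 in parental cells (9.93% of all genes), 1 in NMYC cells (10.0%) and 1 in the difference (9.58%), SLC7A8 on the higher side both times. The lowest adjusted p among the 9 was 0.983 in parental cells, 0.959 in NMYC cells and 0.992 in the difference. The edgeR test on summed counts called 0 of the 9 in each of the 3, against 0%, 0.00550% and 0% of all genes. At an unadjusted p under 0.05 this test had 1 of the 9 in parental cells (SLC7A10), 0 in NMYC cells and 0 in the difference, beside 13.0%, 7.98% and 11.3% of all genes. By that test the difference for SLC7A8 was a log2 fold change of 4.35 with an SE of 2.22 (edgeR unadjusted p = 0.0553), and for SLC38A2 it was -2.92 with an SE of 1.69.

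Of single sgRNAs, edgeR called 0 of the 25 kept for the 9 other genes in each of the 3 comparisons. Over all 53040 sgRNAs 0.0226% were called lower in parental cells, 0.0132% in NMYC cells and 0% in the difference, and 0% higher in each. At an unadjusted p under 0.05 there were 4, 1 and 4 of these 25, beside 11.2%, 6.79% and 9.95% of all sgRNAs. Those in parental cells were against SLC1A5 and SLC38A2 on the higher side and SLC7A8 and SLC7A10 on the lower. In the other 8 comparisons 0 of the 25 were called, against shares of all sgRNAs of 0%, 0.00189%, 0.00566% or 0.0113% per direction. With DESeq2, run as an alternative, 4 sgRNAs of the 9 other genes passed in parental cells from T0 to T12, all of them also among those 4: HGLibB_44467 of SLC1A5 and HGLibB_45010 of SLC38A2 higher, HGLibB_45296 of SLC7A10 and HGLibB_45329 of SLC7A8 lower. In the difference 2 passed with DESeq2, those of SLC7A10 and SLC7A8, both higher. DESeq2 called 10.8% of all sgRNAs in the first comparison and 6.33% in the second. It also called 3 of the 25 in parental cells from T0 to T6 (6.37% of all sgRNAs) and 1 in NMYC cells from T6 to T12 (0.852%).

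The early and late steps share the T6 libraries, and each T0 comparison shares its T0 library. SLC3A2 was at 3.42 in parental and -1.48 in NMYC cells from T0 to T6, and at 1.15 and -2.47 from T6 to T12. With both T0 libraries as the baseline the values from T0 to T6 were -1.14 in parental and -0.14 in NMYC cells, so the parental sign turned. Without its most abundant sgRNA SLC3A2 was at 0.19 from T0 to T6 in NMYC cells and at -0.77 from T6 to T12 in parental cells, the reverse of the sign with all 3.

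The rank aggregation called 0 of the 9 other genes in the 8 comparisons that involve T6 or that set the arms side by side, where 0% of all genes were called. From T0 to T6, 2 of the 9 other genes were at an unadjusted p under 0.05 in parental cells (9.81% of all genes; SLC7A8 lower, SLC7A7 higher), 1 in NMYC cells (10.0%; SLC1A5 lower) and 0 in the difference (9.79%). From T6 to T12 there were 0 in parental cells (9.76%), 2 in NMYC cells (9.60%; SLC7A6 and SLC7A8 higher) and 1 in the difference (9.95%; SLC7A7 higher). Between the arms there was 1 at T12 (9.96%; SLC7A8 higher) and 1 at T6 (10.0%; SLC7A11 lower). Over the 11 comparisons this made 10 of 99 values, or 10.1%, against 9.86% over all genes, and the comparisons share libraries. From T6 to T12 in NMYC cells, 2 of the 3 SLC7A6 sgRNAs were lower. Its log2 value of 1.24 turned to -2.30 without NMYC T12 replicate 2. All 3 SLC7A8 sgRNAs were higher in that step, HGLibB_45329 through 1 of the T12 cultures (153 and 0 counts).

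The genes whose sums followed that of SLC3A2 most closely over the 10 libraries, by Pearson correlation of log2 of CPM plus 1, were GARNL3 (0.945), TMEM161B (0.937) and COX15 (0.932). COX15, a heme A synthesis enzyme, had 5.00 CPM at parental T0 and 74.3 and 68.6 at T12, and 127 at NMYC T0 and 11.2 and 34.9 at T12. Among the other transporters SLC38A2 came closest at 0.580, followed by SLC7A6 at 0.282 and SLC7A5 at 0.173, while SLC7A8 was at -0.603 and SLC7A10 at -0.676. The points share their library and its scaling, and no p is given.

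No gene of the lists around this transport route passed the test. Of 27 other amino acid transporters the rank aggregation called 0 in parental cells, 0 in NMYC cells and 0 in the difference from T0 to T12, with median log2 values of 0.25, -0.10 and -0.43. SLC7A2, another carrier of cationic amino acids, was lowest by p in NMYC cells, with 208 CPM at T0 and 23.4 and 2.67 at T12 (adjusted p = 0.798, rank aggregation on edgeR p-values). SLC38A7, a glutamine transporter of the lysosome, was highest there, with 14.2 CPM at T0 and 50.4 and 143 at T12. In parental cells SLC38A4 was lowest by p (log2 value -1.50) and SLC38A5 highest (0.06).

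On the cystine and glutathione route, 0 of 15 genes were called in parental cells, NMYC cells or the difference, with medians of 0.17, -0.17 and -0.58. TXN, the thioredoxin that reduces protein disulfides, was lowest by p in parental cells (210 CPM at T0, then 86.0 and 63.5 at T12) and GCLM, the modifier subunit of the enzyme for the first step of glutathione synthesis, highest (96.8 CPM at T0, later 182 and 46.8 at T12). In NMYC cells GGT1, which cleaves extracellular glutathione, was lowest (52.9 CPM, then 1.64 and 16.3) and TXNRD1, the thioredoxin reductase, highest (24.8 CPM, then 130 and 6.06).

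Of 12 genes of the response to amino acid shortage, 0 were called in any of the 3, with medians of 0.40, -0.05 and -0.59. PSAT1 of serine synthesis had 4.18 CPM at parental T0 and 34.0 and 70.4 at T12 (log2 value 3.71, adjusted p = 0.983, rank aggregation on edgeR p-values). CEBPB was lowest by p there (-0.83), and in NMYC cells PHGDH, the first enzyme of serine synthesis, was lowest (-1.25). ASNS, which makes asparagine, ranked highest by p in NMYC cells although its sum had a log2 value of -0.37. The ranking uses the ranks of sgRNA p-values and not the sum, and the ASNS sgRNAs were not looked at singly.

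Of 8 adhesion partners of SLC3A2, 7 were tested and 0 called, with medians of 0.53, 0.32 and -0.48. ITGB1, the beta integrin that binds SLC3A2, had 3.65 CPM at NMYC T0 and 73.3 and 36.4 at T12 (log2 value 3.84), opposite in sign to SLC3A2. LGALS3, a galectin that binds glycans of the CD98 complex, had 245 CPM at NMYC T0 and 23.1 and 41.3 at T12 (-2.95, adjusted p = 0.798 by rank aggregation on edgeR p-values). In parental cells CD44, known to stabilise SLC7A11, was lowest by p (-1.35) and BSG, a glycoprotein that associates with CD98, highest (0.53).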

How the data were processed

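The deposited table holds unnormalized counts that the authors made per sgRNA and library. MAGeCK is named in the submitters' processing notes; how reads were trimmed and matched is not stated there. Columns were assigned by sample title, and 0 were left unmapped. sgRNAs with a mean of at least 20 counts were kept (53040 of 55849). The per-sgRNA test was edgeR's quasi-likelihood test (version 4.0.16, R 4.3.3; TMM, 6 group means over all 10 libraries, 4 residual degrees of freedom, Benjamini-Hochberg at 0.05). A single T0 library thus takes its spread from the other groups. sgRNA p-values were combined per gene by robust rank aggregation (one-sided sgRNA p of 0.25, exact null per number of sgRNAs) over 18197 genes with at least 2 kept sgRNAs, adjusted in each direction. Scripts were tested on simulated data. Gene values are log2 ratios of summed CPM plus 0.1, minus the median gene, whose sums moved by -0.24 to 0.35, while the median sgRNA moved by up to 0.65. Replicates were treated as unpaired. DESeq2 1.42.0, other factors, filters, baselines, the block and left-out libraries were alternatives. Members and gene lists were chosen with earlier results of these data known. All 10 members are named, with the best-ranked gene per list and direction and the 3 genes most correlated with SLC3A2. Guide sequences and coordinates were not used here.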

Additional observations from a re-analysis of the deposited data

Results flagged for a closer look

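In each case below both parental libraries lay on one side of the median gene and both NMYC libraries on the other, relative to the T0 library of the arm. This order was met by 29.1% of all genes at T6 and 24.5% at T12, and the sizes are NMYC minus parental log2 values. From T0 to T12 the values were -8.38 for SLC3A2, 4.32 for SLC7A8, 3.11 for SLC7A10 and -2.93 for SLC38A2. From T0 to T6 they were -4.77 for SLC3A2, -1.23 for SLC7A6, 3.49 for SLC7A8, 1.09 for SLC7A10 and -2.85 for SLC38A2. With both T0 libraries as a shared baseline T0 drops out of the difference, which leaves the comparison between the arms at that time point. At T6 this gave 0.96 for SLC3A2 and -0.59 for SLC7A10, both turned. It gave -0.06 for SLC7A6, 1.38 for SLC7A8 and -0.90 for SLC38A2. Without the most abundant sgRNA the T6 values turned for SLC38A2 (0.84) and SLC7A10 (-0.31). At T12 the same 2 settings gave -2.60 and -5.95 for SLC3A2, 2.24 and 9.32 for SLC7A8, 1.47 and 0.53 for SLC7A10, and -0.94 and 0.39 for SLC38A2, the last turned. For the genes other than SLC3A2 the difference itself did not pass (lowest adjusted p of 0.992 at T12 and 0.988 at T6, rank aggregation on edgeR p-values), and for SLC3A2, chosen on such values, no test is read. The NMYC T0 library was above the parental one by a log2 value of 5.82 for SLC3A2, 2.04 for SLC38A2 and 1.26 for SLC7A6, with -2.02 for SLC7A8 and -1.59 for SLC7A10. By construction these gaps enter the differences from T0 in full. What the gaps came from was not tested.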

How the results depend on the processing

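The counts of member genes and sgRNAs called were 0 in all 11 comparisons, and 339 of 343 counts under the alternatives were also 0. The exceptions were all sgRNA calls by DESeq2: 5 in parental T12 against T0, 4 in its NMYC minus parental difference, 3 in parental T6 against T0 and 1 in NMYC T12 against T6, beside 10.8%, 6.33%, 6.37% and 0.852% of all sgRNAs. The 5 and the 4 include 1 and 2 sgRNAs of SLC3A2, which was chosen on such values. No label ties a replicate number at T6 to the same number at T12, and the gaps between duplicates at T6 and T12 correlated at 0.04 (parental) and -0.0031 (NMYC) over genes. With the replicate block 0 genes and 0 sgRNAs were called, and with any 1 T6 or T12 library left out the counts ran from 0 to 0. The lowest adjusted p of a member gene other than SLC3A2 under any alternative was 0.883 (edgeR with the replicate block, NMYC against parental at T6). Of 1666 log2 values of member genes under the alternatives, 1544 kept their sign. Much of that tally was fixed in advance. The replicate block does not enter these values, and a left-out library outside a comparison hardly moves them. Signs turned with a library of the comparison left out, with both T0 libraries as the baseline or without the most abundant sgRNA. A few also turned with the filter on T0 counts. A pseudocount of 1 CPM and the sums without the most abundant sgRNA were chosen after seeing the data. Leaving out 1 library, SLC3A2 ran from 4.61 to 4.78 in parental cells from T0 to T12, from -4.72 to -3.22 in NMYC cells and from -9.21 to -7.69 in the difference. The T0 library of an arm could not be left out. For SLC3A2 and SLC7A7 the parental T0 sums rest on 37 and 18 counts.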
